A study of Homo sapiens with 14 samples.

Results

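The 8 genes described here encode the enzymes that write and remove methyl groups on cytosine in DNA, together with their close cofactors: the DNA methyltransferases DNMT1, DNMT3A and DNMT3B, the cofactors UHRF1 and DNMT3L, and the dioxygenases TET1, TET2 and TET3. They were chosen by name, and all 8 were among the 26485 genes of the count table. Polyadenylated RNA had been sequenced from WA01, a human embryonic stem cell line, and from cultures that were induced from it towards neural crest. The comparisons ask what induction, the strength of Wnt activation and TGF-beta signaling changed in these genes. The uninduced stem cells are called hESC. All 6 induced groups received CHIR99021, which blocks the kinase GSK3 and so switches on canonical Wnt signaling, from hour 0 to hour 72, at 3 µM (low Wnt) or 10 µM (high Wnt), and were collected at day 5. At each dose 1 group had no additive. In a second group SB431542 (SB4), a blocker of the receptors that pass on TGF-beta, activin and nodal signals, was present at 10 µM from hour 0 to hour 120. In the remaining group TGF-beta 1 (TGFB) was present over the same hours at 5 ng/µL, the unit printed in the labels. Each of the 7 groups had 2 libraries, 14 in all, and every library came from this 1 cell line.

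DNMT3A and DNMT3B place methyl groups on CpG sites that had none, while DNMT1 copies the pattern to the new strand after replication, guided by UHRF1, which binds CpG sites methylated on one strand only. DNMT3L has no catalytic activity of its own and stimulates the de novo enzymes, chiefly in germ cells and early embryos. The TET enzymes oxidise 5-methylcytosine with oxygen and 2-oxoglutarate, the first step of active demethylation. Pluripotent stem cells are known for high DNMT3B and TET1, and human embryonic stem cells depend on DNMT1. DNA methylation itself was not measured in the files used here.

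Gene counts summed to between 10879287 and 19106827 per library. Levels are CPM (counts scaled to a common library size, the usual counts-per-million unit) on library sizes scaled by TMM, differences between groups are log2 fold changes with their standard error (SE), and a gene was called at an adjusted p under 0.05 (edgeR's quasi-likelihood F-test, Benjamini-Hochberg adjusted over 16149 genes, 1 fit of all 14 libraries). It is not stated in the labels whether paired libraries were grown as separate cultures, so p-values reflect only the spread among these 14 libraries, which may be technical. The hESC pair differed most, with a chi-square per degree of freedom of 14.1 over genes, against 5.26 to 8.48 in the other groups. The 7 stem cell markers POU5F1, NANOG, TDGF1, DPPA4, ZFP42, LIN28A and PRDM14 were all above 5 CPM in hESC. Of the neural crest markers SNAI2 averaged 0.868 CPM in hESC and 17.8 to 66.6 in the induced groups, and SOX9 5.91 and 14.3 to 24.6. Others did not follow the label: FOXD3 averaged 36.5 CPM in hESC and at most 8.55 in an induced group, and SOX10 was at 5.63 CPM in hESC. TFAP2A and SOX10 stood at or below 0.139 and 1.55 CPM on average in the 3 high Wnt groups, where PAX3 averaged 173 to 253 CPM, and at 3.16 to 15.5 and 1.63 to 6.34 CPM in the 3 low Wnt groups, where PAX3 averaged 7.61 to 17.05 CPM. In hESC TFAP2A and PAX3 averaged 0.153 and 0.0848 CPM. The induced cultures are therefore named by their treatment.

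DNMT3B was annotated on chromosome 20 (32762385 to 32809356, plus strand, hg38), DNMT3A on chromosome 2 (25232961 to 25342590, minus strand) and DNMT3L on chromosome 21 (44246339 to 44262216, minus strand). DNMT1 and UHRF1 were both on chromosome 19 (10133346 to 10195079, minus strand, and 4903080 to 4962154, plus strand). TET1 was on chromosome 10 (68560360 to 68694482), TET2 on chromosome 4 (105145875 to 105279803) and TET3 on chromosome 2 (73986404 to 74108175), all on the plus strand. No member shared an exon with another gene of the same strand. TET2-AS1 lies within the span of TET2 on the opposite strand, and the counting was strand-specific. Counts were summed over all exons of a gene, untranslated regions included, so isoforms were not told apart.

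RefSeq promoter windows (GRCh38.p14, 250 bases before to 25 bases after a transcript start) were found for 7 of the 8 members and not for DNMT3L. The windows of DNMT3B and TET2 are shown because these genes had the widest range over the groups, and those of DNMT1 and UHRF1 because both were called higher with SB4 in high Wnt. Capitals mark words read as binding motifs, searched on both strands: for E2F, the factor family of S phase genes, TTTCGCGC, TTTGGCGC, TTTCCCGC or TTTGCCGC, and for TCF/LEF, the DNA-binding partners of beta-catenin, CTTTG and then AA, AT, TA or TT.
DNMT3B (chr20:32779602-32779876, plus strand): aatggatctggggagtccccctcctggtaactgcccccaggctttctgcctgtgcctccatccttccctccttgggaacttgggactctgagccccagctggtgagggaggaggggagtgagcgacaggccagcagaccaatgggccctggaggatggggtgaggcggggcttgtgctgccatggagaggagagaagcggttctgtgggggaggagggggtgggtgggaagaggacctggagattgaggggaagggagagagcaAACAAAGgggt
TET2 (chr4:105145625-105145899, plus strand): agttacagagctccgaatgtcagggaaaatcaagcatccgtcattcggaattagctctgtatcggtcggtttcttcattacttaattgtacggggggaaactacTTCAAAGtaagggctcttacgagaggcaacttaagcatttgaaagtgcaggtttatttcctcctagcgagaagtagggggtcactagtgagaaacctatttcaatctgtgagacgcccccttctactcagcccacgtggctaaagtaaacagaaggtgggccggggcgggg
DNMT1 (chr19:10194929-10195203, minus strand): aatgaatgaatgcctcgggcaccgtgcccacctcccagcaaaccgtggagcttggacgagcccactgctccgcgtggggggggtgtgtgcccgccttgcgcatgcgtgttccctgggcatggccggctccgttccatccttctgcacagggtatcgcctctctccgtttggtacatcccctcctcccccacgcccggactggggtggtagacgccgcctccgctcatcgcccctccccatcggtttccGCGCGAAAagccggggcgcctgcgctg
UHRF1 (chr19:4909251-4909525, plus strand): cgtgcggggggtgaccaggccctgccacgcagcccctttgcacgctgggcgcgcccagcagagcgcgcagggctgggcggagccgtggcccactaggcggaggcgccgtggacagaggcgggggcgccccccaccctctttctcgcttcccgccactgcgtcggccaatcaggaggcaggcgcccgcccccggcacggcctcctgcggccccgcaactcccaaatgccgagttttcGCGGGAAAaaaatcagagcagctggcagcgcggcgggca
The DNMT3B window lies at a start 17467 bases inside the gene model of the count table and is the only one in the RefSeq table used. The start of that gene model had no window and was not searched, so the values here describe the internal start alone. The DNMT3B window holds 3 CpG sites, against 31 in the UHRF1 window, 26 in that of DNMT1 and 12 in that of TET2. The median was 12 over 35116 windows of the same length. The TCF/LEF word of DNMT3B lies at bases 15 to 21 after the start, and that of TET2 at bases -146 to -140. The start is base 1, and the base before it is -1. An E2F word spans the start of DNMT1, from base -2 to base 6, and lies at bases -14 to -7 of the UHRF1 window, whose start is 6421 bases inside the gene model. Over all windows 3.084% held an E2F word and 12.95% a TCF/LEF word. The SMAD word GTCTAGAC was in 0.1908% of windows and in none of the members' windows. The table gives 3 windows for UHRF1 and 2 for TET2, of which the first is shown. The second of UHRF1 holds an E2F word at bases -160 to -153 and the third none, and the second of TET2 holds 35 CpG sites and no TCF/LEF word. No window of DNMT3A, TET1 or TET3 held any of these words. The words are matches of letters in these windows and do not show binding.

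Of the 8 members 7 passed the filter on low counts, and DNMT3L did not. Against hESC, low Wnt changed all 7, with UHRF1, TET1, TET2 and TET3 higher and DNMT1, DNMT3A and DNMT3B lower, in a comparison where 71.4% of all genes tested were called. High Wnt changed 4 of 7 (DNMT1, DNMT3A and DNMT3B lower, TET2 higher, against 72.4% of all genes), and low Wnt + TGFB 5 of 7 (DNMT1 and DNMT3B lower, the 3 TET genes higher, against 63.2%). The 4 members that differed between doses, UHRF1, DNMT3B, TET1 and TET3, were all lower in high Wnt than in low Wnt, where 38.5% of genes were called and 19.1% were lower. SB4 changed 3 of 7 in low Wnt (11.2% of genes called) and 3 of 7 in high Wnt (21.5%). TGFB changed DNMT3B alone at each dose, 1 of 7 members, with 26.0% of genes called in low Wnt and 7.25% in high Wnt. The effect of SB4 differed between doses for DNMT3B alone (1 of 7, 6.07% of genes called), and so did the effect of TGFB (1 of 7, 11.8%). The shares of members called against hESC are near those of all genes and say little about this family. In the groups of the same dose the counts rest on few genes, and DNMT3B was called in each of those 4 comparisons. Comparisons that share a group, such as low Wnt for both additives, also share its libraries. The same shares of all genes apply to the counts of listed genes given below for these comparisons.

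**Figure D1:**
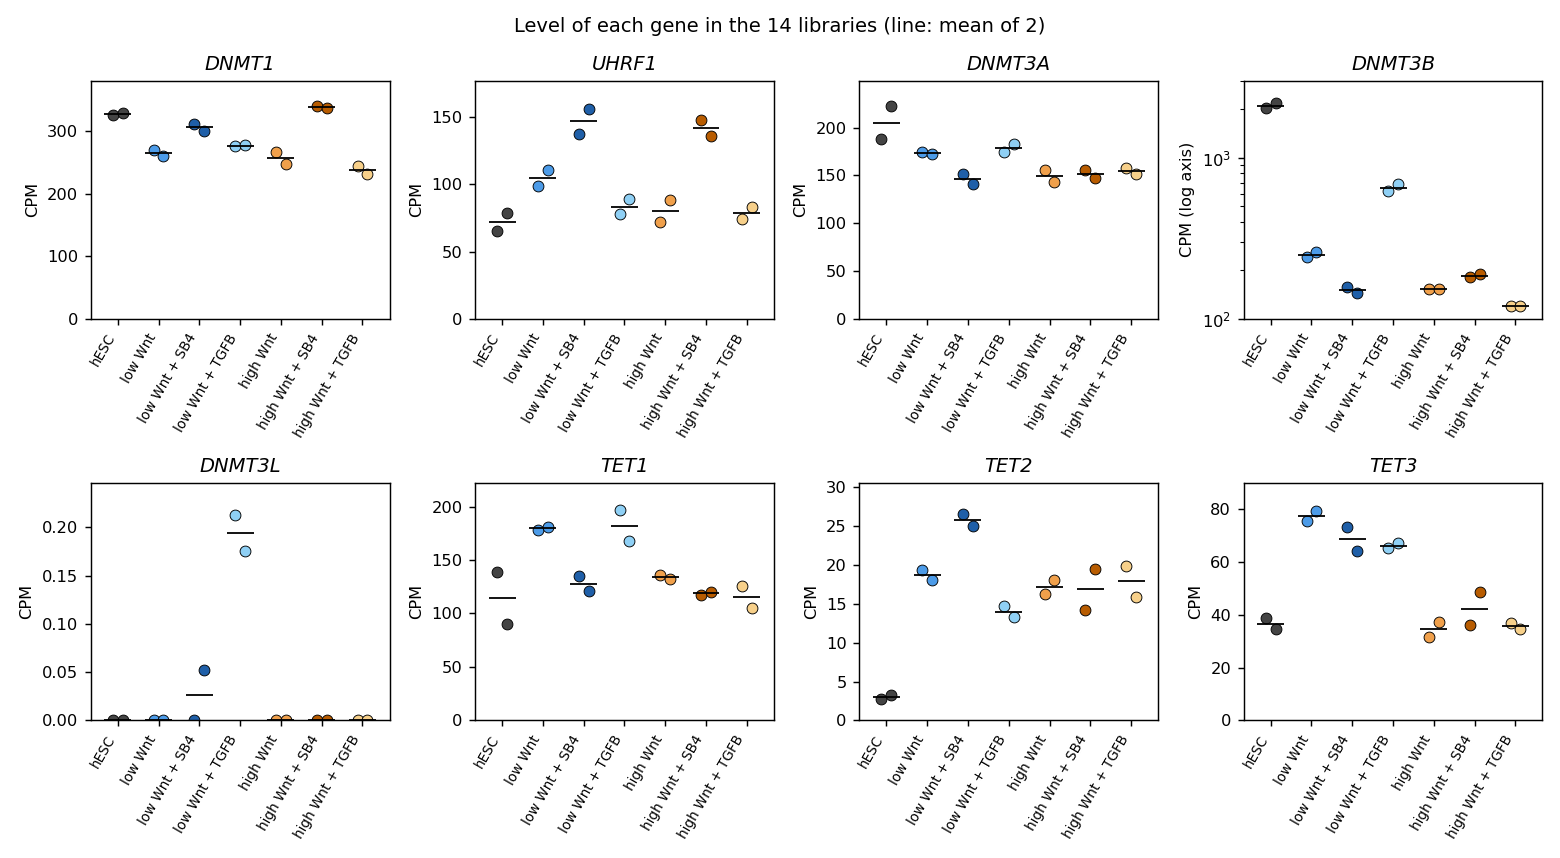
Level of each of the 8 genes in CPM (y axis; logarithmic for DNMT3B, linear from 0 for the others) in the 7 groups (x axis), with 1 point per library and a line at the mean of 2. DNMT3B runs from 2025 and 2188 CPM in hESC to 119.8 and 120.3 CPM in high Wnt + TGFB, TET2 is lowest in hESC, and DNMT3L lies at or near 0 in every library.

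**Figure D2:**
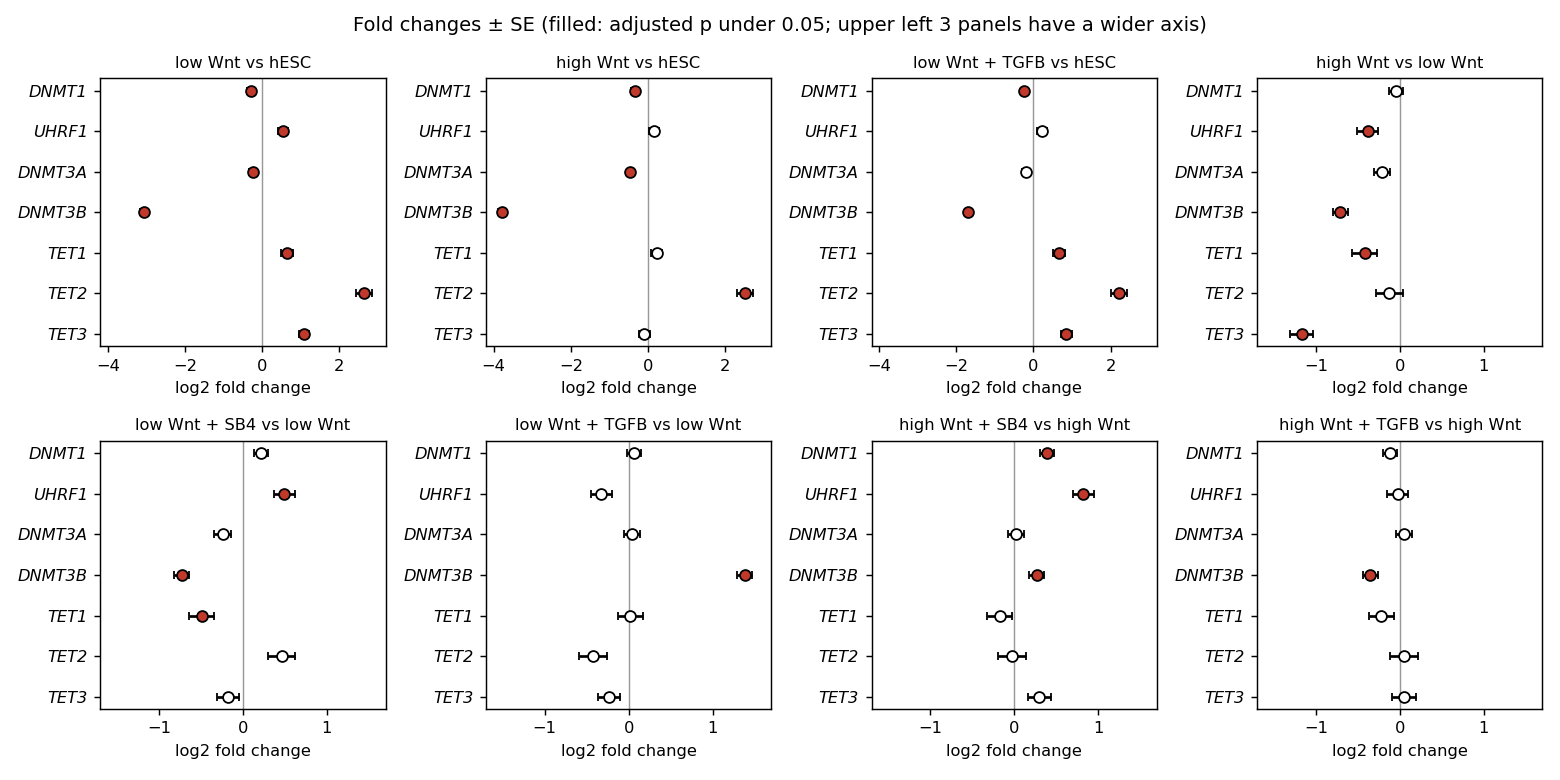
Log2 fold change (x axis) ± SE of the 7 tested members (y axis) in the 8 comparisons of groups, filled where the adjusted p was under 0.05. Against hESC, DNMT3B lies at -3.07, -3.78 and -1.69, and DNMT3B is the member that is filled in all 8 panels.

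DNMT3B, the de novo enzyme typical of pluripotent cells, varied most. Its 2 libraries gave 2025 and 2188 CPM in hESC, 241 and 259.7 in low Wnt, and 153 and 154 in high Wnt. Under SB4 they gave 157 and 145 CPM at the lower dose and 181 and 189 at the higher. With TGFB they gave 622 and 684 CPM at the lower dose and 119.8 and 120.3 at the higher. No induced library came near the hESC pair, and the low Wnt + TGFB pair lay above every other induced library. In order of the means the groups ran hESC, low Wnt + TGFB, low Wnt, high Wnt + SB4, high Wnt, low Wnt + SB4 and high Wnt + TGFB, and only high Wnt and low Wnt + SB4 overlapped among neighbours. The mean of hESC was 2107 ± 116 CPM (SD, n = 2), and the induced groups kept between 5.70% (high Wnt + TGFB) and 31.0% (low Wnt + TGFB) of it.

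Compared with hESC, DNMT3B fell 8.42-fold in low Wnt (log2 fold change -3.07 ± 0.0958, adjusted p = 1.68e-13) and 13.8-fold in high Wnt (-3.78 ± 0.0993, adjusted p = 1.84e-14). In low Wnt + TGFB it fell 3.22-fold (-1.69 ± 0.0907, adjusted p = 2.4e-10). The higher dose alone left it 1.63-fold lower than the lower dose (-0.71 ± 0.0906, adjusted p = 8.26e-06). In bulk RNA, fewer cells that express a gene and less RNA in each cell cannot be told apart, so these values describe each culture as a whole.

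The additives moved DNMT3B in opposite directions at the lower dose. SB4 lowered it 1.66-fold (-0.73 ± 0.0903, adjusted p = 4.8e-05), and TGFB raised it 2.61-fold (1.38 ± 0.0905, adjusted p = 1.24e-08). In both cases the pairs of libraries did not overlap. At the higher dose the signs were the other way round and the sizes small: SB4 raised it 1.21-fold (0.27 ± 0.0905, adjusted p = 0.0428) and TGFB lowered it 1.28-fold (-0.35 ± 0.0915, adjusted p = 0.0259). The pairs did not overlap here either, but both calls at the higher dose were lost when any 1 of the 4 libraries compared was left out (adjusted p of 0.109 to 0.202 for SB4 and 0.108 to 0.166 for TGFB). The SB4 call was also lost under RLE scaling (adjusted p = 0.0565) and with no filter on low counts (adjusted p = 0.0533), and the TGFB call when libraries were scaled by their totals alone (adjusted p = 0.0612).

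The difference between doses was tested itself. The effect of SB4 on DNMT3B was higher at 10 µM than at 3 µM CHIR99021 by 1.00 ± 0.128 on the log2 scale (adjusted p = 0.000102), and the effect of TGFB was lower by 1.74 ± 0.128 (log2 difference -1.74, adjusted p = 2.09e-07). Both kept their call under every alternative tried, leaving out each of the 8 libraries of the groups involved included, with ranges of 0.94 to 1.06 and of -1.83 to -1.68 over those omissions. No other member was called for either difference.

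**Figure D3:**
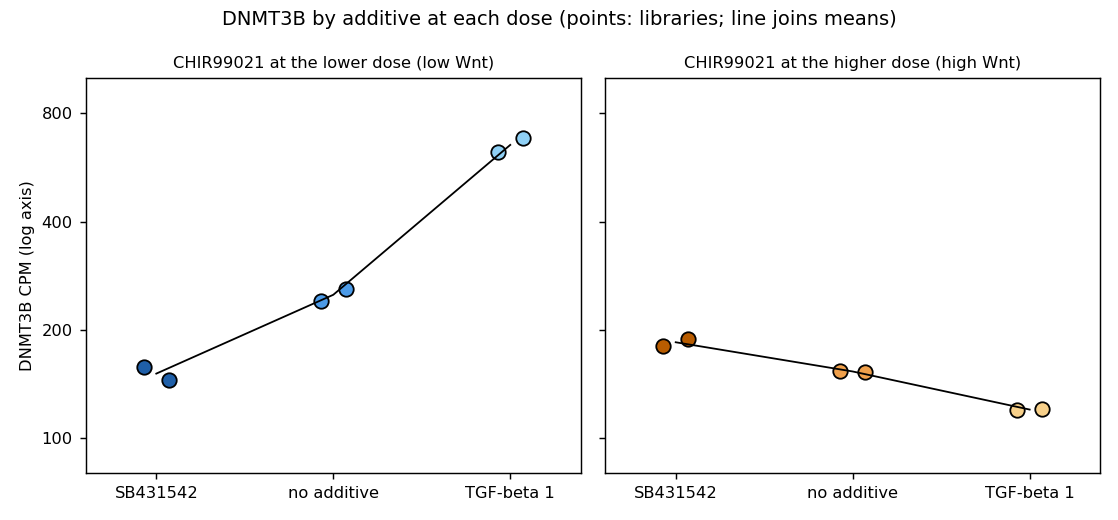
DNMT3B in CPM (y axis, logarithmic) with SB431542, no additive or TGF-beta 1 (x axis) at the lower (left) and the higher (right) dose of CHIR99021, with 1 point per library and a line through the means. The means climb from 151 over 250.3 to 653 CPM at the lower dose and run from 185 over 153 to 120.0 CPM at the higher dose.

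Markers of pluripotent cells, like DNMT3B, were highest in hESC and next highest in low Wnt + TGFB. The summed level of the 7 markers was 4594 to 4598 CPM in hESC, 2409 to 2715 in low Wnt + TGFB, 1366 to 1581 for low Wnt and 1030 to 1174 for low Wnt + SB4. In the groups of the higher dose it was 728 to 857 CPM alone, 685 to 810 under SB4 and 509 in both libraries under TGFB. The order was not that of DNMT3B throughout: the sum was no higher under SB4 in high Wnt, where DNMT3B was called higher, and low Wnt + SB4 lay above all high Wnt groups at a DNMT3B mean of 151 CPM. The lower sum in high Wnt + TGFB lay in LIN28A, at 636 CPM in high Wnt and 340 with TGFB, while DPPA4 (134 and 143 CPM) and ZFP42 (21.9 and 25.7 CPM) were no lower. All 7 exceeded a mean of 5 CPM in low Wnt + TGFB, 5 did in low Wnt and 3 in each of the other induced groups. POU5F1, the core stem cell factor, averaged 197 ± 47.5 CPM in hESC, 3.16 ± 1.71 in low Wnt and 41.9 ± 4.20 in low Wnt + TGFB. NANOG had 0 counts in high Wnt. Endoderm markers (SOX17, FOXA2, GATA6, GATA4 and AFP) also stood apart in low Wnt + TGFB, with a summed level of 41.9 to 91.4 CPM against 1.77 to 2.09 in low Wnt, and 4 of the 5 exceeded 5 CPM. In high Wnt + TGFB the 5 mesoderm markers summed to 229 to 254 CPM, against 91.7 to 103 in high Wnt. MEOX1 made up the difference, with 73.6 CPM in high Wnt and 221 with TGFB, while TBX6 (21.4 and 18.1 CPM) and MSGN1 (1.73 and 1.54 CPM) were no higher. The part of these cells in the level of DNMT3B was not tested.

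DNMT3A, the other de novo enzyme, changed little. Its libraries gave 189 and 222 CPM in hESC, 175 and 173 in low Wnt, and 156 and 144 in high Wnt. Under SB4 they gave 152 and 141 CPM at the lower dose and 156 and 147 at the higher, and under TGFB 174 and 183 at the lower and 158 and 152 at the higher. The hESC pair was the highest, and the 3 high Wnt groups and low Wnt + SB4 overlapped as neighbours in the order. DNMT3A was 1.37-fold lower in high Wnt than in hESC (-0.46 ± 0.0978, adjusted p = 0.000516) and 1.18-fold lower in low Wnt (-0.24 ± 0.0971, adjusted p = 0.0349). The latter call was lost without hESC replicate 2 (-0.10, adjusted p = 0.389), low Wnt replicate 1 (adjusted p = 0.103) or low Wnt replicate 2 (adjusted p = 0.128), with library totals alone (adjusted p = 0.151) and with no filter (adjusted p = 0.0849). In low Wnt + TGFB its value against hESC was -0.20 ± 0.0972 (adjusted p = 0.0838), which passed under DESeq2 (-0.23, adjusted p = 0.0455) and without hESC replicate 1 (-0.29, adjusted p = 0.0206). No additive passed the test for DNMT3A at either dose. With SB4 the value was -0.24 in low Wnt (95% interval -0.43 to -0.05, adjusted p = 0.125), where the pairs did not overlap, and 0.02 in high Wnt (-0.17 to 0.21). The former passed when the hESC libraries were left out (-0.26, adjusted p = 0.0478). Its difference between TGFB and no additive was 0.04 (95% interval -0.15 to 0.23) in low Wnt and 0.05 (-0.14 to 0.24) in high Wnt.

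DNMT3L was close to absent. It had 0 counts in 11 of the 14 libraries, 1 count in low Wnt + SB4 replicate 2 and 3 counts in each low Wnt + TGFB library. A count of 0 allows up to 3 counts, or 0.157 to 0.269 CPM depending on the library. These limits cover counting error only. The low Wnt + TGFB libraries (0.213 and 0.176 CPM) each held 3 counts. Summed by group, low Wnt + TGFB held 6 counts, low Wnt + SB4 held 1 and the other groups held 0. The gene failed the filter on low counts, so differences between groups were not tested.

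Per kilobase of exon, the level of DNMT3B was 13.1 and 12.1 times that of DNMT3A in the hESC libraries. At the lower dose the ratio was 1.69 and 1.84 without additive, 1.27 and 1.26 under SB4, and 4.37 and 4.57 under TGFB. At the higher dose it was 1.21 and 1.30, 1.42 and 1.57, and 0.927 and 0.968 in the same order. DNMT3B thus exceeded DNMT3A in 12 of 14 libraries, and high Wnt + TGFB was the group in which DNMT3A was the higher of the pair. Against DNMT1, the ratio of DNMT3B per kilobase was 7.24 and 7.76 in hESC, 2.62 and 2.87 in low Wnt + TGFB, 1.04 and 1.16 in low Wnt, and between 0.561 and 0.717 in the other induced libraries. DNMT3B was therefore the most abundant of the methyltransferases per length in hESC, low Wnt + TGFB and low Wnt, and DNMT1 was in the other 4 groups.

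**Figure D4:**
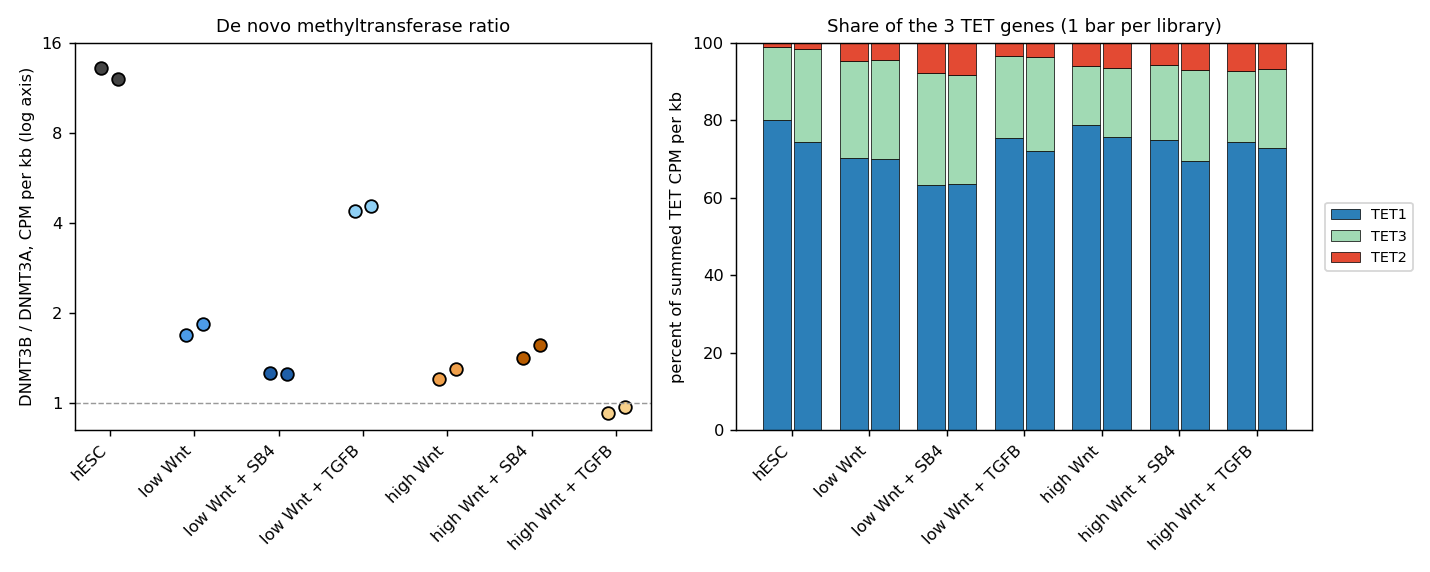
Left, the ratio of DNMT3B to DNMT3A in CPM per kilobase of exon (y axis, logarithmic; dashed line at 1) in the 7 groups, 1 point per library. Right, the percent of the summed TET level per kilobase held by TET1, TET3 and TET2, 1 bar per library. The ratio falls from 13.1 and 12.1 in hESC to 0.927 and 0.968 in high Wnt + TGFB, and TET1 holds 63.3% to 80.1% of the TET total.

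DNMT1, the maintenance enzyme, stayed within a 1.42-fold range of group means. Its libraries gave 326 and 329 CPM in hESC, 269.9 and 261 in low Wnt, and 267 and 248 in high Wnt. Under SB4 they gave 312 and 301 CPM at the lower dose and 341 and 337 at the higher, and under TGFB 277 and 278 at the lower and 245 and 232 at the higher. Both SB4 pairs lay above all libraries of their dose without it, and the high Wnt + SB4 pair lay above hESC. DNMT1 fell 1.24-fold from hESC to low Wnt (-0.30 ± 0.0836, adjusted p = 0.00375) and 1.27-fold to high Wnt (-0.35 ± 0.0838, adjusted p = 0.00138). Its value in low Wnt + TGFB against hESC was -0.24 ± 0.0836 (adjusted p = 0.019), a call that was lost without any 1 of the 4 libraries. The call was also lost with no filter on low counts (-0.22, adjusted p = 0.0908) and with library totals alone (-0.07, adjusted p = 0.473). SB4 raised DNMT1 1.32-fold in high Wnt (0.40 ± 0.0836, adjusted p = 0.00294), while the value in low Wnt was 0.21 ± 0.0834 (adjusted p = 0.126). The difference of those effects did not pass the test (0.19 ± 0.118, adjusted p = 0.45).

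UHRF1, which brings DNMT1 to newly replicated DNA, responded to SB4 at both doses. Its libraries gave 65.6 and 78.5 CPM in hESC, 98.6 and 111 in low Wnt, and 71.8 and 88.5 in high Wnt. Under SB4 they gave 138 and 156 CPM at the lower dose and 148 and 136 at the higher, and under TGFB 77.8 and 89.1 at the lower and 74.2 and 83.2 at the higher. The SB4 libraries were the 4 highest of all 14, and hESC, high Wnt and both TGFB groups overlapped. SB4 raised UHRF1 1.40-fold in low Wnt (0.49 ± 0.124, adjusted p = 0.0163) and 1.77-fold in high Wnt (0.82 ± 0.126, adjusted p = 0.000208). The low Wnt call was lost without low Wnt replicate 1 (adjusted p = 0.154) or low Wnt + SB4 replicate 2 (adjusted p = 0.181). UHRF1 was 1.45-fold higher in low Wnt than in hESC (0.54 ± 0.127, adjusted p = 0.00118), with values of 0.16 (95% interval -0.10 to 0.41) in high Wnt and 0.21 (-0.04 to 0.46) in low Wnt + TGFB. In low Wnt + TGFB UHRF1 came to 0.37 without hESC replicate 2, and to 0.39 with library totals alone, where it was called (adjusted p = 0.0156). It was 1.30-fold lower in high Wnt than in low Wnt (-0.38 ± 0.127, adjusted p = 0.0238), a call lost without low Wnt replicate 2 (adjusted p = 0.173) or high Wnt replicate 1 (adjusted p = 0.235). With TGFB in low Wnt its value was -0.33 ± 0.126 (adjusted p = 0.0675). It passed with no filter on low counts (adjusted p = 0.0287) and with the replicate number as a block (adjusted p = 0.0232).

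Under SB4 genes of S phase rose beside UHRF1 and DNMT1 in high Wnt. In low Wnt fewer of them rose beside UHRF1, and DNMT1 was not called (adjusted p = 0.126). The list held 16 S phase genes (licensing factors of the MCM family, CDC6, CDT1 and replication enzymes). In high Wnt, where SB4 changed 21.5% of all genes, 14 of them rose and 0 fell. The median log2 fold change of the list was 0.74, against 0.00 over all genes tested. MCM6 rose from 156 ± 22.6 to 293 ± 10.6 CPM and MCM4 from 269 ± 20.5 to 488 ± 12.4 CPM (SD, n = 2), both subunits of the replicative helicase. In low Wnt, where SB4 changed 11.2% of all genes, 5 of the 16 rose and 0 fell (median 0.24). MCM2, 1 of the 5, stood at 312 ± 3.04 against 220.0 ± 5.72 CPM. Against hESC the list and UHRF1 did not move together. In low Wnt 11 of 16 fell and 1 rose (median -0.56, with 71.4% of all genes called), while UHRF1 rose. In high Wnt 12 fell and 1 rose (median -0.74, with 72.4% called). In low Wnt + TGFB 11 fell and 0 rose (median -0.48, with 63.2% called). DNMT1 was lower in all 3 (-0.30, -0.35 and -0.24, the last a call lost in several alternatives), the direction of most of the list. TGFB raised 4 and lowered 1 in low Wnt (26.0% of all genes called), where UHRF1 had a value of -0.33. In high Wnt 0 of 16 were called with TGFB by edgeR, against 2 by DESeq2 and 4 at an unadjusted p under 0.05 in edgeR (RRM2 came nearest, adjusted p = 0.0537). Whether the share of cycling cells accounts for the levels of UHRF1 and DNMT1 was not tested.

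**Figure D5:**
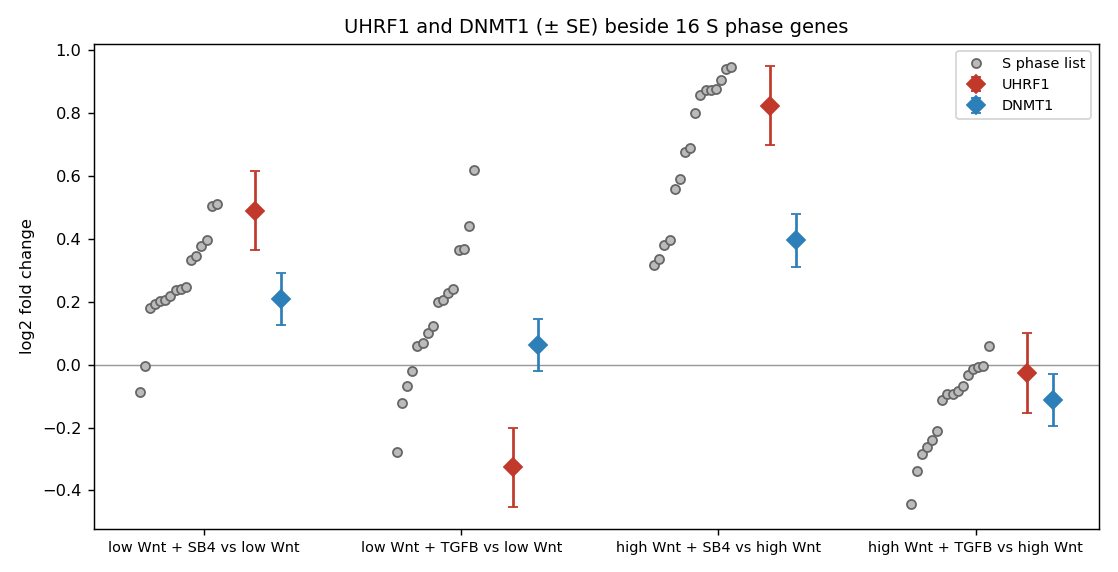
Log2 fold change (y axis) of each of 16 S phase genes (grey points, sorted within a comparison) and of UHRF1 and DNMT1 (diamonds, ± SE) for each additive at each dose (x axis). With SB4 in high Wnt all 16 points lie above 0, UHRF1 at 0.82 and DNMT1 at 0.40; with TGFB in low Wnt UHRF1 lies at -0.33.

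TET1, the chief TET enzyme of stem cells, was the most abundant of the 3 per kilobase in every library, with 63.3% to 80.1% of their summed level. Its libraries gave 138 and 90.5 CPM in hESC, 178 and 181 in low Wnt, and 136 and 132 in high Wnt. Under SB4 they gave 135 and 121 CPM at the lower dose and 118 and 120.3 at the higher, and under TGFB 197 and 167 at the lower and 125 and 105 at the higher. The hESC pair was the widest apart and had the lowest mean of all groups (114 CPM). Its range spanned low Wnt + SB4 and every high Wnt group, while low Wnt and low Wnt + TGFB lay above all other groups. TET1 rose 1.57-fold from hESC to low Wnt (0.65 ± 0.150, adjusted p = 0.001) and 1.59-fold to low Wnt + TGFB (0.67 ± 0.150, adjusted p = 0.00104). Both kept their call but moved with the hESC pair, to 1.00 and 1.03 without hESC replicate 1 and to 0.39 and 0.41 without hESC replicate 2. In high Wnt its value was 0.23 ± 0.151 (adjusted p = 0.185), which became 0.59 (adjusted p = 0.000823) without hESC replicate 1 and -0.02 (adjusted p = 0.873) without hESC replicate 2. TET1 was 1.34-fold lower in high Wnt than in low Wnt (-0.42 ± 0.149, adjusted p = 0.034) and 1.41-fold lower with SB4 in low Wnt (-0.49 ± 0.149, adjusted p = 0.0419). Both values kept their sign in every alternative. The dose call was lost without low Wnt replicate 1 (adjusted p = 0.0899), low Wnt replicate 2 (0.113), high Wnt replicate 1 (0.0895) or high Wnt replicate 2 (0.121), and the SB4 call without any 1 of its 4 libraries (adjusted p of 0.092 to 0.276) or with library totals alone (adjusted p = 0.0626).

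TET2 was the member that rose in all 3 comparisons with hESC by the widest margin. Its libraries gave 2.81 and 3.22 CPM in hESC (76 counts in all), 19.4 and 18.1 in low Wnt, and 16.3 and 18.1 in high Wnt. Under SB4 they gave 26.6 and 25.04 CPM at the lower dose and 14.2 and 19.6 at the higher, and under TGFB 14.7 and 13.3 at the lower and 19.9 and 15.9 at the higher. The hESC pair lay below all induced libraries, and low Wnt + SB4 above them. TET2 rose 6.22-fold in low Wnt (2.64 ± 0.202, adjusted p = 6.09e-09), 5.71-fold in high Wnt (2.51 ± 0.205, adjusted p = 1.07e-08) and 4.64-fold in low Wnt + TGFB (2.21 ± 0.206, adjusted p = 1.34e-07). Low Wnt and high Wnt differed by -0.13 (95% interval -0.45 to 0.20). The additives had values of 0.46 ± 0.159 for SB4 (adjusted p = 0.0751, or 0.0471 with no filter on low counts) and -0.42 ± 0.165 for TGFB (adjusted p = 0.0693) in low Wnt, and of -0.03 and 0.05 in high Wnt. In spite of the rise TET2 held 3.53% to 8.24% of the summed TET level per kilobase in induced libraries, against 1.02% and 1.66% in hESC.

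TET3 separated the low Wnt groups from the rest. Its libraries gave 38.7 and 34.5 CPM in hESC, and at the lower dose 75.6 and 79.4 alone, 73.2 and 64.0 under SB4, and 65.1 and 67.1 under TGFB. At the higher dose they gave 31.5 and 37.3 CPM alone, 36.1 and 48.5 under SB4, and 36.8 and 34.6 under TGFB. All 6 low Wnt libraries lay above the other 8, and hESC overlapped each high Wnt group. TET3 rose 2.11-fold from hESC to low Wnt (1.08 ± 0.136, adjusted p = 2.21e-06) and 1.80-fold to low Wnt + TGFB (0.85 ± 0.136, adjusted p = 4.68e-05). It was 2.25-fold lower in high Wnt than in low Wnt (-1.17 ± 0.136, adjusted p = 2.76e-06). Its difference between high Wnt and hESC was -0.09 (95% interval -0.36 to 0.19). No additive passed the test at either dose. SB4 in high Wnt gave 0.30 ± 0.137 (95% interval 0.03 to 0.57, adjusted p = 0.139), and a value of 0.49 (adjusted p = 0.0341) without high Wnt + SB4 replicate 1. Neural progenitor markers (SOX1, PAX6, SOX2, HES5, OLIG3 and DBX1) were also higher in low Wnt than in high Wnt. The 6 summed to 697 to 804 CPM in low Wnt, 903 to 1006 when SB4 was added and 437 to 444 when TGFB was added. At the higher dose the sum was 299 to 356 CPM alone, 501 to 569 under SB4 and 163 to 167 under TGFB. In hESC it was 379 to 386 CPM. The order was not that of TET3 throughout, since high Wnt + SB4 lay above low Wnt + TGFB. SOX2 was the largest part of the sum, at 492 CPM in low Wnt, 320 in high Wnt and 380 in hESC. The part of these markers in the level of TET3 was not tested.

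Partners of the methyltransferases fell more often than they rose on induction, in comparisons that called 71.4% of all genes in low Wnt, 72.4% in high Wnt and 63.2% in low Wnt + TGFB, so a high count called is no feature of the list. Of 16 listed genes 15 were tested, and 8 fell and 2 rose from hESC to low Wnt (median -0.42, against 0.00 over all genes) and 10 fell and 2 rose to high Wnt (median -0.51). In low Wnt + TGFB 6 fell and 2 rose against hESC (median -0.20). CDCA7L, a relative of the chromatin remodelling cofactor CDCA7, fell from 203 ± 4.92 to 58.5 ± 3.42 CPM in low Wnt, and TRIM28, the corepressor of zinc finger proteins that silences transposons, from 1623 ± 268 to 652 ± 53.7 CPM in high Wnt. WHSC1, the H3K36 methyltransferase also called NSD2, went the other way, from 180 ± 4.13 CPM in hESC to 483 ± 22.6 in low Wnt and 449 ± 11.7 in high Wnt. Between doses 2 were higher and 4 lower in high Wnt, CDCA7L with 149.6 ± 15.02 CPM among the higher. With SB4 4 of 15 rose and 0 fell in high Wnt, among them the sliding clamp PCNA (350.2 ± 8.28 against 220.1 ± 28.6 CPM) and CDCA7 (189 ± 3.67 against 111 ± 3.94 CPM). In low Wnt SB4 gave 0 calls by edgeR among the 15, against 1 by DESeq2 and 2 at an unadjusted p under 0.05 in edgeR, with PCNA nearest (0.38 ± 0.119, adjusted p = 0.0523). TGFB raised 2 and lowered 1 in low Wnt, and in high Wnt it lowered 1, CDCA7L (-0.58 ± 0.119, adjusted p = 0.00567).

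Genes listed as TET partners, or as enzymes that make or use 2-oxoglutarate, changed in both directions. They were listed by name, and a tie to TET activity was not measured for any of them. Against hESC 71.4% of all genes were called in low Wnt, 72.4% in high Wnt and 63.2% in low Wnt + TGFB. A high count called is therefore no feature of the list. Of the 12 listed genes, 5 rose and 5 fell from hESC to low Wnt (median 0.01), 6 rose and 3 fell to high Wnt (median 0.28), and 4 rose and 4 fell to low Wnt + TGFB. CXXC4, a CXXC domain protein known to bind TET2, rose from 3.34 ± 0.321 CPM in hESC to 100.2 ± 9.06 in low Wnt, 66.2 ± 6.54 in high Wnt and 52.5 ± 10.1 in low Wnt + TGFB. OGT, the O-GlcNAc transferase that forms complexes with TET proteins, rose from 142 ± 20.3 to 406 ± 7.87 CPM in low Wnt. IDH1, the cytosolic enzyme that makes 2-oxoglutarate, fell from 566 ± 13.97 CPM in hESC to 88.8 ± 2.64 in high Wnt and 236 ± 4.14 in low Wnt + TGFB. It stood at 327 ± 24.98 CPM in low Wnt, and was 1 of 3 genes of this list that were lower at the higher dose, with 3 higher. SB4 raised IDH1 at both doses, by 0.35 ± 0.0889 in low Wnt (adjusted p = 0.0168) and by 0.91 ± 0.0921 in high Wnt (adjusted p = 3.63e-06). With SB4 2 of 12 rose and 0 fell in low Wnt, and 2 rose and 2 fell in high Wnt. TGFB raised 2 and lowered 4 in low Wnt, CXXC4 among the latter (-0.94 ± 0.138, adjusted p = 7.96e-05), and gave 0 calls in high Wnt by edgeR (ZNF143 came nearest, adjusted p = 0.0576), against 1 by DESeq2 and 4 at an unadjusted p under 0.05 in edgeR.

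The methyl donor and folate genes, which supply S-adenosylmethionine to the methyltransferases, fell more often than they rose on induction, against the same shares of all genes called (71.4%, 72.4% and 63.2%). Of 18 genes 9 fell and 4 rose in low Wnt (median -0.35), 11 fell and 5 rose in high Wnt (median -0.49), and 10 fell and 3 rose in low Wnt + TGFB (median -0.32), each against hESC. MTHFD1, a folate enzyme of the cytosol, fell from 465 ± 10.6 to 106 ± 3.73 CPM in low Wnt and 74.2 ± 5.64 in high Wnt. SHMT2, the mitochondrial serine hydroxymethyltransferase, fell from 357 ± 60.3 to 84.5 ± 0.0308 CPM in low Wnt and 140.2 ± 8.17 in high Wnt. Between doses 5 were higher and 4 lower in high Wnt. SB4 raised 4 and lowered 0 in low Wnt, and raised 6 and lowered 1 in high Wnt, where MTHFD1 went from 74.2 ± 5.64 to 111 ± 6.57 CPM. TGFB raised 4 and lowered 2 in low Wnt, and lowered 2 and raised 0 in high Wnt.

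The members' patterns over the 14 libraries differed from each other. In log2 CPM, DNMT3B had a Pearson correlation of 0.89 with DNMT3A and of -0.89 with TET2, TET1 had 0.70 with TET3, and DNMT1 had 0.43 with UHRF1. These describe 14 libraries that share groups and a scaling, and hESC lies at an end of both of the DNMT3B relations. Among 11457 genes of at least 5 CPM outside the family, the 3 most like DNMT3B were EPHX3 (0.99), CD24 (0.99) and GPR176 (0.99). CD24, a cell surface glycoprotein, averaged 3289 CPM in hESC, 1379 in low Wnt + TGFB and 481 to 784 in the other induced groups. Most like TET2 were HOXA2 (0.99), CXXC4 (0.98) and FIGNL2 (0.98), and among those most like TET3 were MAP4K4 (0.96) and GUCY1A2 (0.96). UHRF1 was followed by HMGN2 (0.95), MTMR4 (0.94) and RBBP7 (0.94), DNMT1 by XRCC3 (0.94), ACAT2 (0.94) and FECH (0.94), DNMT3A by PHYHD1 (0.95), FBXO2 (0.94) and FGFR4 (0.94), and TET1 by LGALSL (0.91), HLTF (0.90) and BPTF (0.90).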

How the data were processed

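Gene expression was measured by RNA sequencing in 14 libraries of 7 groups. The deposited values are raw counts, 1 column per library. The submitters' processing notes name featureCounts 2.0.0, SAMtools 1.10, HISAT2 2.2.0, bcl2fastq and hg38; per the file headers, read pairs were counted over exons with reverse strandedness, and multiply mapped reads were not counted. Nothing used here states trimming or duplicate removal.

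From these counts, genes were kept by filterByExpr (16149 of 26485), scaled by TMM and tested with edgeR 4.0.16 (R 4.3.3; glmQLFit, glmQLFTest) in 1 fit with 1 mean per group, 7 residual degrees of freedom and 10 contrasts. Calls were made below an adjusted p (Benjamini-Hochberg) of 0.05. The SE is the absolute log2 fold change divided by the square root of F. The 95% intervals apply a normal distribution to this SE, so they are narrower than the F-test implies. An interval can leave out no change while the unadjusted p of the F-test is above 0.05. On simulated counts for low Wnt + TGFB against low Wnt (14882 genes tested), the fit recovered 100% of the 50 genes changed by 1 on the log2 scale and 36% of those changed by 0.5. The simulation changed far fewer genes than were called in the data and gave all genes the same spread.

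The members and the 7 gene lists were chosen with earlier results of these data known. All members are named, and from each list the genes with the 2 smallest p in a contrast, up to 4 for a whole list, and the 3 genes most correlated with each member. Some genes so chosen are not reported by name, but counts over lists hold them. NSD2 and DCAF1 were found in the table under the older symbols WHSC1 and VPRBP. Alternatives were RLE scaling, library totals, DESeq2 1.42.0, no filter, a replicate block, each library left out, and, chosen after seeing the data, a fit without hESC. Promoter windows and their coordinates come from RefSeq (GRCh38.p14).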

Additional observations from a re-analysis of the deposited data

Results flagged for a closer look

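The response of DNMT3B to each additive differed between the doses of CHIR99021, by a test of the difference itself in the edgeR fit. For SB431542 the effect at the higher dose exceeded that at the lower dose by 1.00 on the log2 scale (SE 0.128, adjusted p = 0.000102, 95% interval 0.75 to 1.25): the libraries with SB4 were both lower than those without at 3 µM and both higher at 10 µM. For TGF-beta 1 the difference was -1.74 (SE 0.128, adjusted p = 2.09e-07, 95% interval -1.99 to -1.48): both libraries were higher with TGFB at 3 µM and both lower at 10 µM. At 10 µM the changes themselves were small, 0.27 for SB4 and -0.35 for TGFB. Both calls at that dose were lost when any 1 of the 4 libraries compared was left out. No outlying library could be tested for, since each group had 2.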

How the results depend on the processing

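Of 735 values recomputed under 20 settings, 666 kept their direction and side of the threshold, 35 lost and 10 gained a call, and 24 changed sign, all of them values that were not called. The count of members called moved as follows. For high Wnt against low Wnt it was 2 to 3 of 7 over the libraries left out, against 4. For SB4 in low Wnt it was 1 to 2, against 3. For TGFB in low Wnt it was 2 with no filter on low counts and 2 with the replicate number as a block, against 1, UHRF1 being added each time. For TGFB in high Wnt it was 0 with library totals alone and 0 to 0 over the libraries left out, against 1. Signs changed for DNMT3A in the difference of TGFB effects, near 0 throughout: -0.0093 under RLE scaling, -0.0133 with library totals, -0.0093 with DESeq2, -0.0054 without the hESC libraries, and -0.0725 to 0.0549 over the libraries left out. With library totals TET2 had 0.0328 for SB4 in high Wnt and UHRF1 0.0339 for TGFB in high Wnt. Over the libraries left out, against hESC in high Wnt TET3 ran from -0.21 to 0.0277 and TET1 from -0.0246 to 0.59. DNMT1 ran between doses from -0.11 to 0.008, and TET1 for TGFB in low Wnt from -0.0728 to 0.15. For SB4 in high Wnt DNMT3A ran from -0.0491 to 0.0784 and TET2 from -0.28 to 0.18. For TGFB in high Wnt TET2 ran from -0.10 to 0.21, TET3 from -0.0557 to 0.18, UHRF1 from -0.16 to 0.14 and DNMT3A from -0.0069 to 0.12. The cause of these shifts was not tested.

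Leaving out a library also cut the count over all genes: to 784 to 1067 for SB4 in low Wnt (1814 with all), 2342 to 3564 for TGFB in low Wnt (4196), 1944 to 2422 for SB4 in high Wnt (3476), 538 to 714 for TGFB in high Wnt (1170) and 1253 to 1732 for the difference of TGFB effects (1905). In these fits the lone library of a group is assumed to vary like the others. Library totals shifted the median gene of low Wnt + TGFB against hESC to 0.19, and DNMT1 then lost its call (-0.07, adjusted p = 0.473) while UHRF1 gained one (0.39, adjusted p = 0.0156). The replicate block changed no other count of members by over 1.5 times. Deviations of same-numbered libraries were weakly correlated (-0.12 to 0.21 over 21 pairs of groups, median 0.0566, 5 of them over 0.1). A shared effect of the replicate number is not excluded. The labels state no pairing, so the main fit had no block. With the block in edgeR, UHRF1 was called lower with TGFB in low Wnt (-0.33, adjusted p = 0.0232). Depth limits DNMT3L, at 0 to 3 counts, and TET2 in hESC, at 76 counts over 2 libraries. With 2 libraries a group, members not called are not shown to be unchanged. Changes of 0.5 on the log2 scale were often missed in simulated counts. Few genes were changed there and all had the same spread, so that recovery does not measure the sensitivity of the tests on the data.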

Other observations

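Genes listed as readers of DNA methylation rose more often than they fell on induction. They were listed by name or protein domain, and their binding to methylated DNA was not measured. Against hESC 71.4% of all genes were called in low Wnt, 72.4% in high Wnt and 63.2% in low Wnt + TGFB. Of the 11 listed genes, 7 rose and 2 fell to low Wnt (median log2 fold change 0.52, against 0.00 over all genes). To high Wnt 8 rose and 2 fell (median 0.72). In low Wnt + TGFB 6 rose and 2 fell against hESC. MBD5, listed for the domain in its name, rose from 8.91 ± 2.05 to 27.8 ± 0.360 CPM in low Wnt and 33.5 ± 2.03 in high Wnt (SD, n = 2). UHRF2, the paralogue of UHRF1, rose from 51.4 ± 5.22 to 151 ± 21.0 CPM in high Wnt. Between doses 2 were higher in high Wnt and 0 lower, ZBTB38 and MBD2. SB4 raised 1 in low Wnt (MBD2, adjusted p = 0.0497), and raised 1 and lowered 3 in high Wnt. TGFB raised 2 and lowered 3 in low Wnt, and gave 0 calls in high Wnt by edgeR (UHRF2 came nearest, adjusted p = 0.118), with 0 by DESeq2 and 2 at an unadjusted p under 0.05 in edgeR.

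Among 15 genes of active demethylation and base excision repair, of which 14 were tested, PARP1, which senses DNA breaks, fell from 991 ± 54.8 CPM in hESC to 536 ± 11.5 in low Wnt and 587 ± 24.7 in high Wnt. Against hESC 5 rose and 2 fell in low Wnt, 6 rose and 3 fell in high Wnt, and 2 rose and 3 fell in low Wnt + TGFB. Of all genes 71.4%, 72.4% and 63.2% were called in these comparisons. GADD45A, a stress-induced gene, stood at 87.3 ± 12.2 CPM in high Wnt and 24.6 ± 3.43 in low Wnt, where 4 of the list were higher and 2 lower between doses. SB4 gave 0 calls in low Wnt by edgeR (LIG1 came nearest, adjusted p = 0.051), against 2 by DESeq2 and 4 at an unadjusted p under 0.05 in edgeR. It raised 2 and lowered 2 in high Wnt, with the ligase LIG1 at 174 ± 8.48 against 115 ± 2.33 CPM. TGFB raised 1 and lowered 1 in low Wnt and lowered 1, GADD45G, in high Wnt. Of 14 germline genes whose promoters are known to be methylated in somatic cells, 6 passed the filter on low counts, and the other 8 had between 0 and 72 counts over all libraries. DAZL, an RNA-binding protein of germ cells, averaged 3.17 CPM in hESC, 0.663 in low Wnt, 0.0305 in low Wnt + SB4 and 2.22 in low Wnt + TGFB, and had 0 counts in high Wnt. PIWIL2 averaged 8.67 CPM in hESC, 1.66 in low Wnt and 1.74 in high Wnt.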
